A study of Mus musculus with 6 samples.

Results

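The enzymes of bile acid synthesis were followed in the liver of Swiss-Webster mice, an outbred strain, that were fed fractions of Boswellia serrata, the tree whose gum resin is Indian frankincense. The 10 genes Cyp7a1, Cyp27a1, Cyp7b1, Cyp39a1, Hsd3b7, Cyp8b1, Akr1d1, Amacr, Slc27a5 and Baat were chosen by name, with earlier results of these data known. They are among 12393 genes with a single symbol on the array, and every probe set annotated to 1 of the 10 was used. There were 14 such probe sets, 2 each for 4 of the genes and 1 each for the other 6, and all 14 were bright enough to be tested. Total liver RNA was hybridized to 6 Affymetrix arrays. Of these, 2 came from mice whose diet held 1% of fraction 1, made with hexane, for 21 days. Another 2 came from mice given 1% of fraction 2, made with methanol, for the same 21 days, and 2 from mice on the control diet. No source used here gives the sex or age of the mice, the constituents of the fractions or whether a replicate is 1 animal or a pool. The p-values therefore reflect the spread among these arrays alone, which may be technical.

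The liver disposes of cholesterol by turning it into bile acids. In the classic route Cyp7a1 adds the first hydroxyl group to the cholesterol ring and sets the rate, and bile acids themselves hold the gene down through the nuclear receptor FXR (Nr1h4), its target SHP (Nr0b2) and an intestinal growth factor read by Fgfr4 and Klb. In the alternative routes the side chain is oxidized first, by Cyp27a1 or by enzymes outside the liver, and the resulting oxysterols are hydroxylated on the ring by Cyp7b1 or Cyp39a1. Hsd3b7, Cyp8b1 and Akr1d1 then remodel the ring, Amacr prepares the side chain for shortening in peroxisomes, and Slc27a5 and Baat join the product to coenzyme A and then to taurine or glycine.

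The signals are linear array units, used as deposited. The array medians lay between 139 and 167 units. The label of liver was checked against hepatocyte markers: all 10 were bright enough to be tested, and the summed signal of the list was 142703 to 158209 units after fraction 1, 130785 to 138211 after fraction 2 and 165322 to 181928 in control. Control replicate 1 and fraction 2 replicate a were scanned in batch 2 and the other 4 arrays in batch 1, so no fraction 1 array lies in batch 2. Each batch held 1 control array and 1 fraction 2 array, so every change within a batch rests on a single array of these groups. The ratio of 3' to 5' actin signal, which rises with RNA breakdown, was 3.87 on control replicate 2, against 2.13 to 2.64 on the other 5 arrays. The control arrays had r = 0.941 with each other across tested probe sets, against 0.970 between the arrays of fraction 1 and 0.969 between those of fraction 2. Control replicate 1 had r = 0.971 with fraction 2 replicate a, which shares both its scan batch and its chip lot. With fraction 2 replicate b, scanned in the other batch, control replicate 1 had r = 0.962. Control replicate 2 had r = 0.937 to 0.9495 with the fraction arrays of its own batch and 0.934 with fraction 2 replicate a. What part batch or lot had in these values was not tested.

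**Figure D1:**
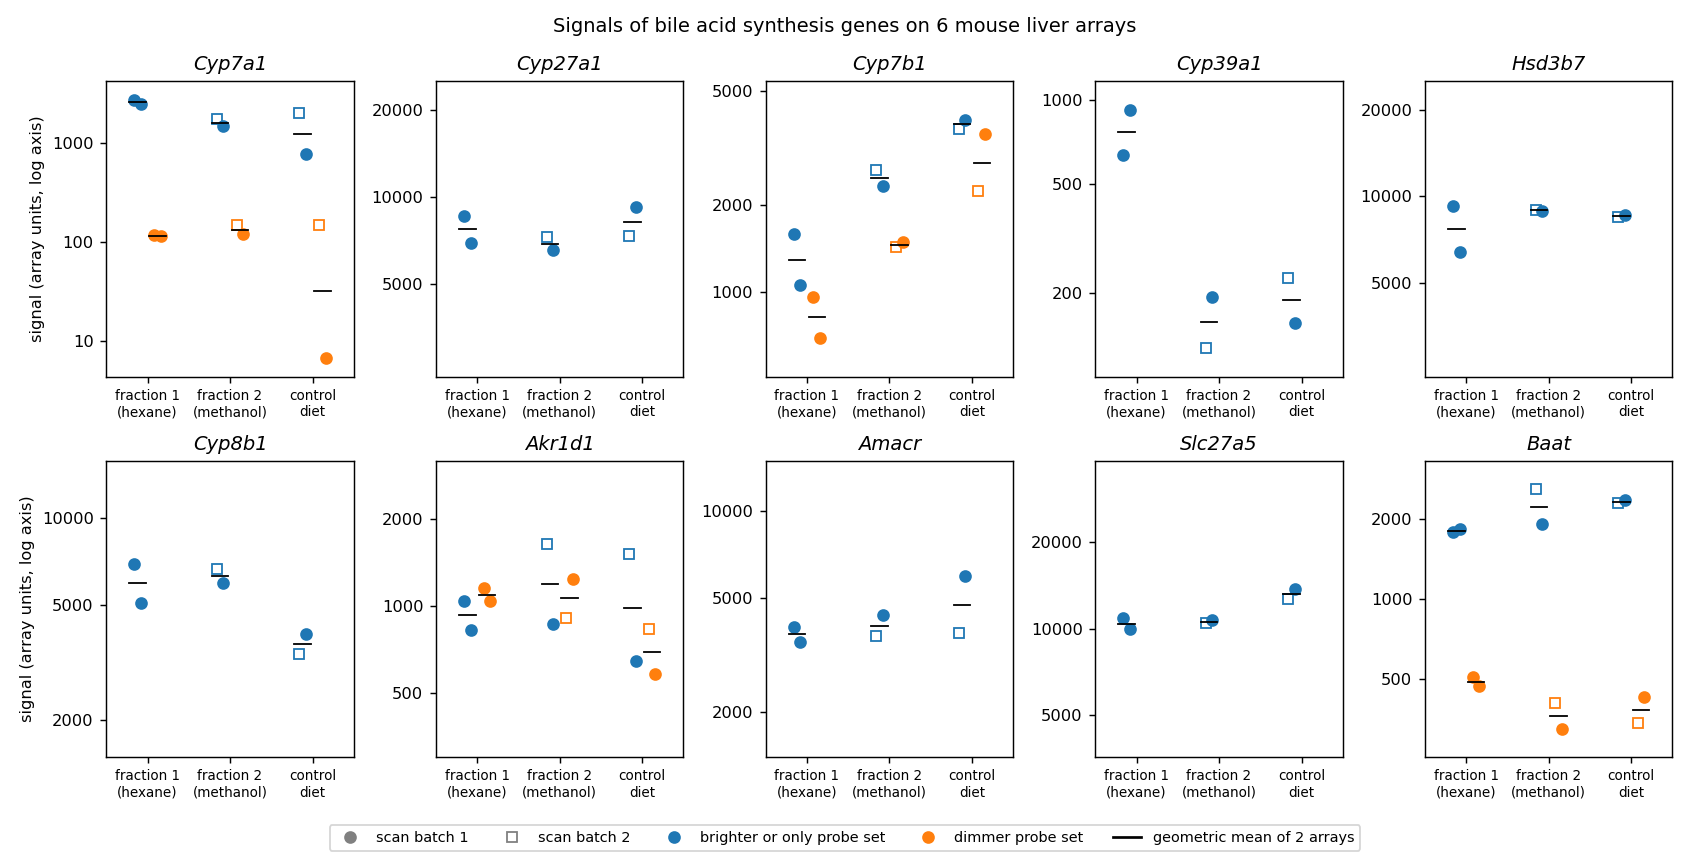
Signal of each bile acid synthesis gene on every array (array units, log axis), by diet; circles are arrays of scan batch 1, open squares arrays of scan batch 2, colours tell the brighter or only probe set from the dimmer one, and black bars are geometric means of 2 arrays. Cyp39a1 after fraction 1 (635 and 925 units) lies above all 4 other arrays and Cyp7b1 below them on both probe sets, while the low Cyp7a1 values of the control group belong to 1 array.

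After fraction 1, the oxysterol hydroxylase Cyp39a1 rose and the oxysterol hydroxylase Cyp7b1 fell on both of its probe sets. These were 3 of the 14 probe sets of the pathway at an adjusted p under 0.05 (limma, Benjamini-Hochberg over all 14755 tested probe sets), where 0.712% of all tested probe sets were called. Of the 3, 1 was higher, beside 0.366% of all, and 2 were lower, beside 0.346% of all. The count was 0 when control replicate 2, fraction 1 replicate b or either fraction 2 array was omitted, 1 without fraction 1 replicate a and 4 without control replicate 1. It was also 0 with no filter, with no variance trend or with a fit to those 2 groups only, and 1 with median centring. After fraction 2 no probe set of the pathway passed, where 0.108% of all did; at an unadjusted p under 0.05 in limma there were 5 of 14, where 6.95% of all tested probe sets lay. The median log2 change of the 10 genes, each by its brighter probe set, was -0.12 after fraction 1 and -0.15 after fraction 2, beside -0.02 and -0.04 for all tested probe sets. By this probe set, 3 genes stood above and 7 below control after fraction 1, and 4 above and 6 below after fraction 2. The count after fraction 1 depends on the probe set taken. Akr1d1 and Baat count as below, while their other probe sets stood at 0.64 and 0.34. The share of all tested probe sets below 0 was not counted. Log2 changes here are of signal plus 16, which understates the change of dim genes, and in bulk RNA fewer cells of a type cannot be told apart from less RNA per cell.

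Cyp7a1, the rate-setting enzyme of the classic route, was measured by 2 probe sets. The brighter, 1438743_at, read 2744 and 2507 units after fraction 1, 1775 and 1481 after fraction 2, and 2002 and 777 on the control diet. Both arrays of fraction 1 lay above the other 4, while fraction 2 lay between the 2 controls. The log2 change was 1.06 ± 0.37 (SE) after fraction 1 (adjusted p = 0.277, limma) and 0.37 ± 0.37 after fraction 2 (adjusted p = 0.838). The distance to control depends on control replicate 2, the array with the high actin ratio. Without it the change after fraction 1 was 0.39 (adjusted p = 0.362) and that after fraction 2 was -0.30. Without control replicate 1, which leaves control replicate 2 as the only control and the same value as within scan batch 1, it was 1.73 after fraction 1 (adjusted p = 0.0151), past the threshold. The dimmer probe set, 1422100_at, read 118 and 115 units after fraction 1, 149 and 121 after fraction 2, and 150 and 6.8 on the control diet. Apart from the 6.8 units of control replicate 2, its values lay close together, and its change after fraction 1 went to -0.33 without that array, beside 1.11 with it.

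Cyp27a1, the mitochondrial side chain oxidase that opens the main alternative route (probe set 1417590_at), read 8588 and 6934 units after fraction 1, 7247 and 6526 after fraction 2, and 7293 and 9203 on the control diet. The arrays of fraction 1 lay among the controls, and those of fraction 2 just below them. Its log2 change was -0.09 after fraction 1, with a 95% interval of -0.47 to 0.29, and -0.25 after fraction 2, with an interval of -0.63 to 0.13.

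Cyp7b1, which hydroxylates the oxysterol that Cyp27a1 makes and is known to be expressed more in male than in female mouse liver, was measured by 2 probe sets. Its probe set 1421074_at read 1596 and 1055 units after fraction 1, 2655 and 2338 after fraction 2, and 3689 and 3955 on the control diet. The 3 diets did not overlap, with fraction 1 lowest and control highest. Probe set 1421075_s_at, of a type that can also match related transcripts, read 960 and 695 units after fraction 1, 1429 and 1491 after fraction 2, and 2234 and 3540 on the control diet, in the same order and again without overlap. Both detect the same gene and are not independent. The first averaged 1326 ± 382 units after fraction 1, 2496 ± 224 after fraction 2 and 3822 ± 188 in control (SD, n = 2). After fraction 1 it changed by -1.55 ± 0.21 (adjusted p = 0.0273) and 1421075_s_at by -1.76 ± 0.25 (adjusted p = 0.0307), each by limma. After fraction 2 they stood at -0.61 and -0.94 and did not pass (adjusted p = 0.635 and 0.512). Within scan batch 1 the change of 1421074_at was -1.60 after fraction 1 and -0.75 after fraction 2, both against control replicate 2 alone. Within batch 2 it was -0.47 after fraction 2, against control replicate 1 alone. As the diets did not overlap, leaving out 1 array could not turn the sign. Leaving out 1 array kept the sign each time, but the call of 1421074_at was kept only when control replicate 1 or fraction 1 replicate a was omitted. It was lost without control replicate 2 (adjusted p = 0.0674), fraction 1 replicate b (0.175), fraction 2 replicate a (0.0558) and fraction 2 replicate b (0.0570). That of 1421075_s_at was kept without control replicate 1 only, and was lost without fraction 1 replicate a (adjusted p = 0.0579), control replicate 2 (0.0656), fraction 1 replicate b (0.235), fraction 2 replicate a (0.0594) and fraction 2 replicate b (0.0629).

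Cyp39a1, which hydroxylates the ring of an oxysterol formed mainly in the brain, moved the other way after fraction 1. Its probe set 1418780_at read 635 and 925 units after fraction 1, 127 and 194 after fraction 2, and 228 and 157 on the control diet. Both fraction 1 arrays lay far above the other 4, while fraction 2 and control overlapped. Means were 780 ± 205 units after fraction 1, 161 ± 47.6 after fraction 2 and 192 ± 50.1 in control (SD, n = 2). The log2 change after fraction 1 was 1.93 ± 0.29, or 3.82-fold, with a 95% interval of 1.26 to 2.61 (adjusted p = 0.0340, limma). After fraction 2 it was -0.24 ± 0.29 (adjusted p = 0.865), with 0.29 within scan batch 1 and -0.77 within batch 2. Within scan batch 1 the change after fraction 1 was 2.18, against control replicate 2 alone. With scan batch as a block the change after fraction 1 was 1.92 with the call lost (adjusted p = 0.0562). The call was kept without control replicate 1 and was lost without control replicate 2 (adjusted p = 0.0807), fraction 1 replicate a (0.0745), fraction 1 replicate b (0.298), fraction 2 replicate a (0.0558) and fraction 2 replicate b (0.0570), while the change stayed between 1.67 and 2.20 over these omissions.

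**Figure D2:**
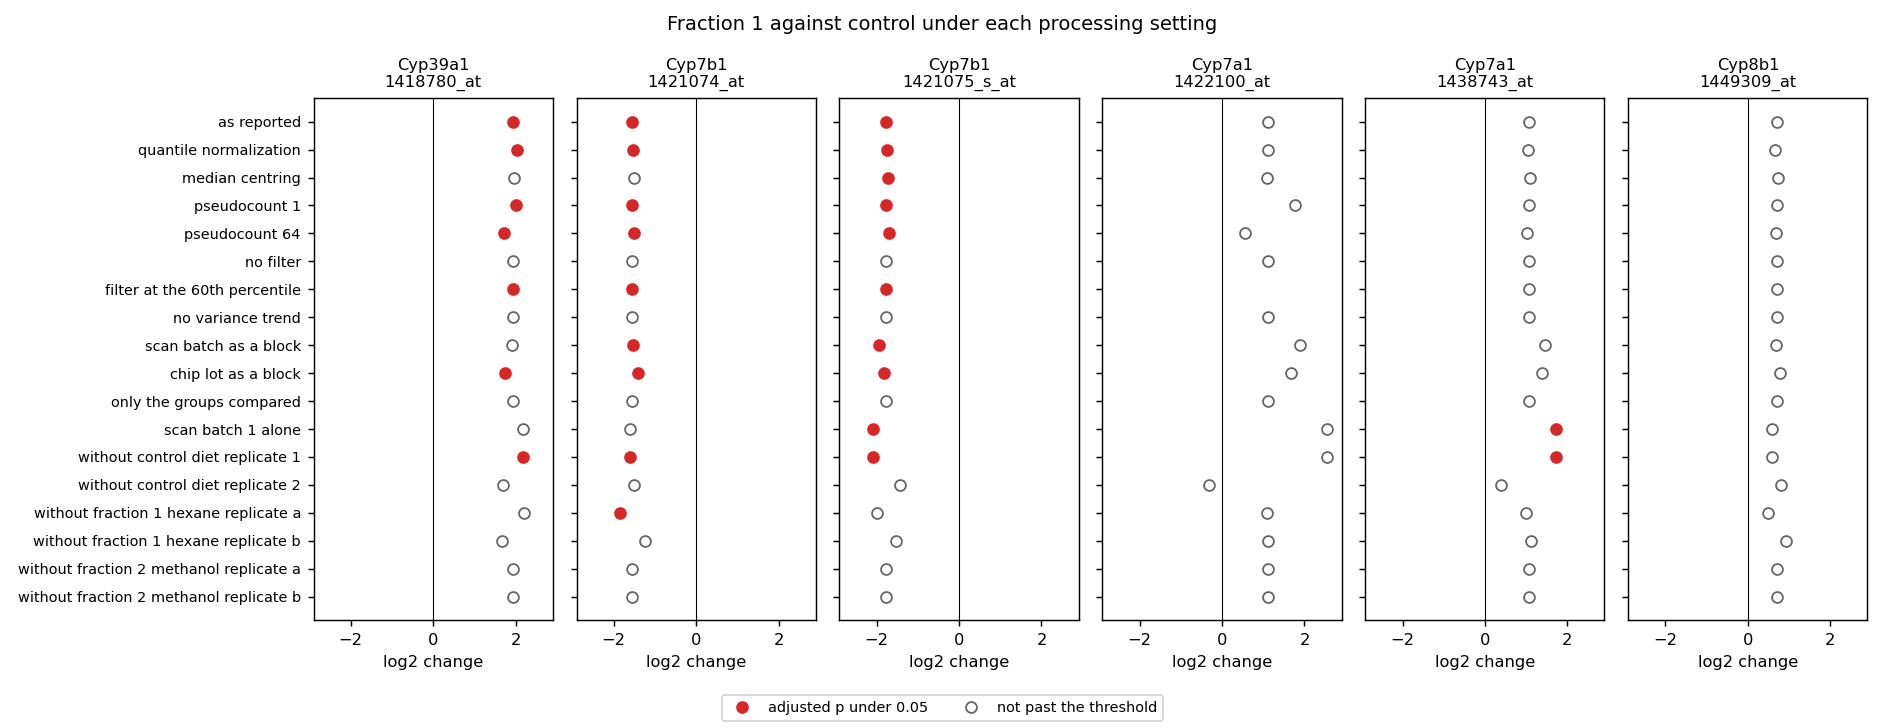
Log2 change of fraction 1 against control (x axis) for 6 probe sets under each of 17 alternative settings and as reported (rows), with 16 alternatives for the dimmer Cyp7a1 probe set; filled red points had an adjusted p under 0.05. The changes of Cyp39a1 (1.67 to 2.20) and Cyp7b1 kept their sign while their calls came and went, whereas Cyp7a1 moved with which control array was left out. Several settings, such as the filters, cannot turn a sign.

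Of the enzymes that remodel the ring, Hsd3b7, which oxidizes the ring hydroxyl group in both routes (probe set 1416968_a_at), read 9299 and 6418 units after fraction 1, 8999 and 8893 after fraction 2, and 8467 and 8649 on the control diet. The fraction 1 arrays lay on both sides of the others, and those of fraction 2 above both controls. Its log2 change was -0.15 after fraction 1 (95% interval -0.55 to 0.25) and 0.06 after fraction 2 (-0.34 to 0.46).

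Cyp8b1 adds the hydroxyl group that makes cholic acid, and so sets the share of cholic acid in the pool. Its probe set 1449309_at read 6929 and 5110 units after fraction 1, 6695 and 5970 after fraction 2, and 3395 and 3967 on the control diet. All 4 arrays of the fractions lay above both controls. The log2 change was 0.69 ± 0.18 after fraction 1 (unadjusted p = 0.00442, adjusted p = 0.151) and 0.78 ± 0.18 after fraction 2 (unadjusted p = 0.00221, adjusted p = 0.378), so neither passed over all probe sets with limma. Within scan batch 1 it stood at 0.58 and 0.59 after fraction 1 and fraction 2, and within batch 2 at 0.98 after fraction 2, each against a single control array. The 2 comparisons share their control arrays.

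Akr1d1, the reductase that bends the steroid ring, was measured by 2 probe sets with unlike patterns. Probe set 1455100_at read 1155 and 1039 units after fraction 1, 910 and 1243 after fraction 2, and 834 and 581 on the control diet, with all 4 fraction arrays above both controls. Its log2 change was 0.64 after fraction 1 (adjusted p = 0.315, limma) and 0.60 after fraction 2 (adjusted p = 0.677). Within scan batch 1 it stood at 0.90 and 1.08 after fraction 1 and fraction 2, against control replicate 2 alone. Within batch 2 it stood at 0.12 after fraction 2, against control replicate 1 alone. Without control replicate 2, the array with the high actin ratio, the change after fraction 1 was 0.39. Probe set 1425771_at, the brighter by mean log2 signal, read 1040 and 829 units after fraction 1, 1642 and 870 after fraction 2, and 1511 and 646 on the control diet. Its 2 high values are those of the arrays of scan batch 2. Its change after fraction 1 was -0.09, and 0.44 with scan batch as a block.

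Promoter windows of 300 bases (250 before the gene's start and 50 after it) were given by RefSeq on build GRCm38.p6 for 4 of the 10 genes, namely Cyp27a1, Hsd3b7, Cyp8b1 and Akr1d1. Those of Cyp8b1 and Akr1d1 are shown, because these are the genes of the 4 with a probe set above control on all 4 arrays of the fractions. For Akr1d1 only the dimmer probe set, 1455100_at, does so. The share of all tested probe sets with this pattern was not counted. Capitals mark matches to 3 motifs, searched on both strands and chosen with these sequences in view: CAAAGTCCA, the element known from targets of the liver factor HNF4, the TATA box TATAAA and the nuclear receptor half-site AGGTCA, whose other strand reads TGACCT. The windows lie at chr9:121916256-121916555 on the minus strand for Cyp8b1 and at chr6:37529923-37530222 on the plus strand for Akr1d1, both written 5′ to 3′ along the gene.
Cyp8b1: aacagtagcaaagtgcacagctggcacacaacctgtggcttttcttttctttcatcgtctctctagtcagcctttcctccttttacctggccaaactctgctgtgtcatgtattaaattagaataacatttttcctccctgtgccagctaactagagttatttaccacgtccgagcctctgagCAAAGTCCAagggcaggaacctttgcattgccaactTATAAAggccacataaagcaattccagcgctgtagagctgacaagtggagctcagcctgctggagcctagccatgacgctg
Akr1d1: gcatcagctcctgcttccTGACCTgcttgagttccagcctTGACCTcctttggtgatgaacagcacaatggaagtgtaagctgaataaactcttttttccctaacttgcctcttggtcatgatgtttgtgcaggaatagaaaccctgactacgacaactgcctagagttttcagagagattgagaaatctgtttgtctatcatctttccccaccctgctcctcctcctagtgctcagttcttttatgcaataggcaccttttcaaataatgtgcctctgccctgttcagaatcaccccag
The window of Cyp8b1 held CAAAGTCCA starting 67 bases and TATAAA starting 31 bases before the gene's start. That of Akr1d1 held AGGTCA on the other strand at 2 places, starting 232 and 210 bases before the gene's start. No marked matches overlap. The windows of Cyp27a1 and Hsd3b7 held none of the 3 motifs in these letters. Among all 32851 promoter windows of the same length, CAAAGTCCA was in 0.475%, TATAAA in 13.6% and AGGTCA in 16.3%.

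Among the enzymes of the side chain and of conjugation none passed. Amacr, the racemase that turns the side chain to the form peroxisomes can shorten (probe set 1417208_at), read 3947 and 3512 units after fraction 1, 3689 and 4334 after fraction 2, and 3760 and 5920 on the control diet. Its groups overlapped, with control replicate 2 highest. Its log2 change was -0.34 after fraction 1 (95% interval -0.84 to 0.16) and -0.24 after fraction 2 (-0.74 to 0.26). Slc27a5, the ligase that couples bile acids to coenzyme A (probe set 1449112_at), read 10873 and 9945 units after fraction 1, 10485 and 10684 after fraction 2, and 12645 and 13743 on the control diet. All 4 fraction arrays lay below both controls, by -0.34 ± 0.12 after fraction 1 (adjusted p = 0.269) and -0.32 ± 0.12 after fraction 2 (adjusted p = 0.659), so neither passed. The summed signal of the hepatocyte markers was likewise lower on all 4 fraction arrays than on both controls, and its part in these values was not tested.

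Baat, which attaches taurine or glycine, had 2 probe sets of opposite sign after fraction 1. The brighter, 1419002_s_at, is of a type that can also match related transcripts. It read 1783 and 1830 units after fraction 1, 2580 and 1909 after fraction 2, and 2295 and 2347 on the control diet. The dimmer, 1419001_at, read 508 and 468 units after fraction 1, 404 and 324 after fraction 2, and 341 and 426 on the control diet. Fraction 1 lay below control on the first and above it on the second, at -0.36 and 0.34, and neither passed (adjusted p = 0.488 and 0.576), so no direction is given for the gene.

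**Figure D3:**
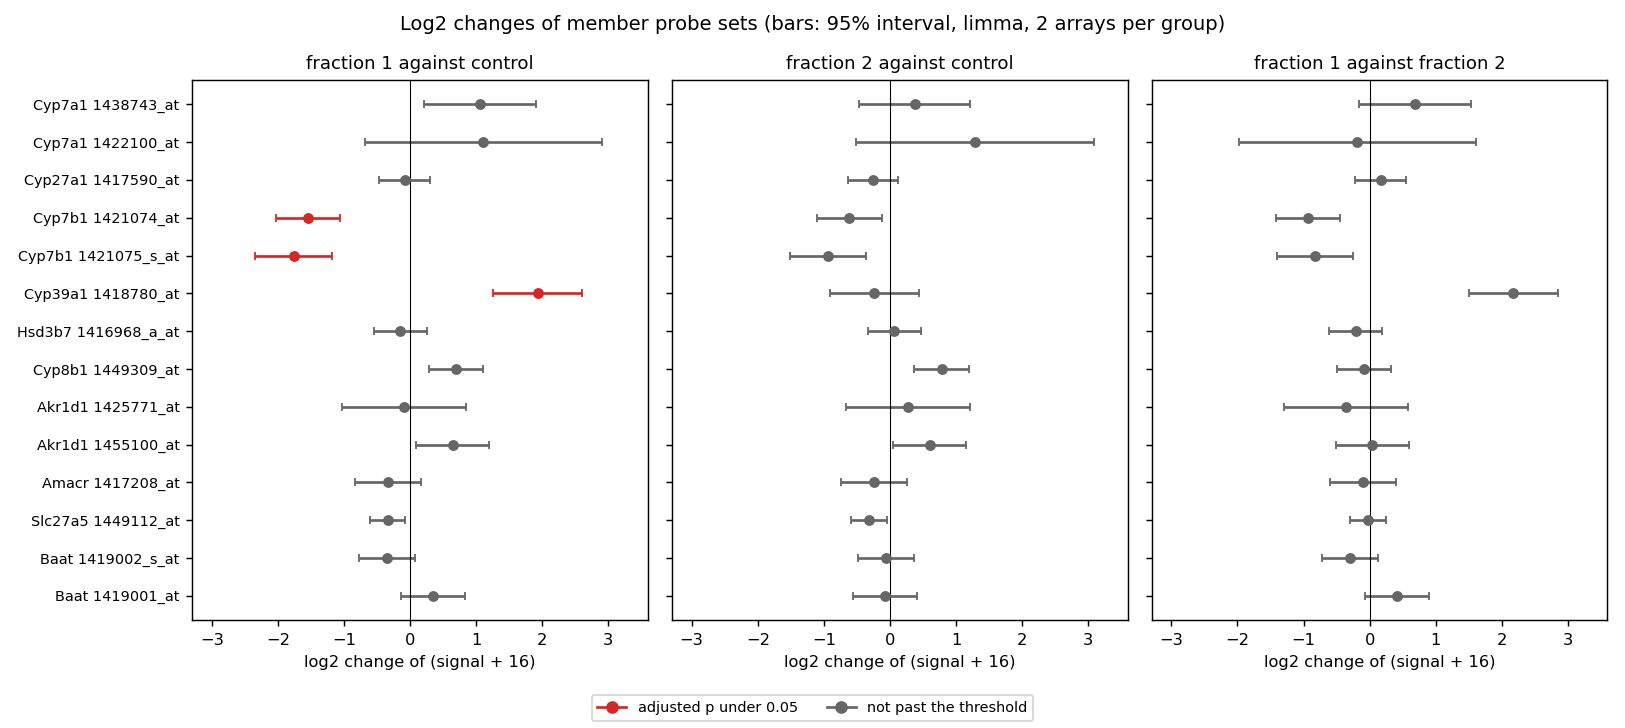
Log2 change (x axis) of the 14 probe sets in the 3 comparisons, with 95% intervals from limma over 2 arrays per group; red marks an adjusted p under 0.05. After fraction 1 the intervals of Cyp7b1 (-1.55) and Cyp39a1 (1.93) lie far from 0, and no probe set passed in the other comparisons.

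Across the pathway, 9 of the 14 probe sets had fraction 1 arrays that did not overlap with control, where 40.9% of all tested probe sets had. Of these, 5 lay higher, beside 18.8% of all, and 4 lower, beside 22.1%. After fraction 2 it was 7 of 14, beside 35.2% of all, with 3 higher (14.8% of all) and 4 lower (20.4% of all). At an unadjusted p under 0.05 in limma there were 7 of 14 after fraction 1, beside 12.4% of all tested probe sets. The 14 probe sets stand for 10 genes, so these counts take 4 genes at 2 probe sets each.

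The fractions were also set against each other at the same 1% of the diet and the same 21 days. None of the 14 probe sets passed in this comparison, where 0.0136% of all tested probe sets did; at an unadjusted p under 0.05 in limma there were 3 of 14, beside 8.04% of all. Arrays of the fractions did not overlap on 7 of the 14, beside 46.8% of all. The 3 with a small unadjusted p were Cyp39a1 and the 2 probe sets of Cyp7b1. Cyp39a1 was higher after fraction 1 than after fraction 2 by 2.17 ± 0.29, with a 95% interval of 1.50 to 2.85 (unadjusted p = 5.97e-05, adjusted p = 0.170), by 1.89 within scan batch 1 and by 2.16 with scan batch as a block. With chip lot as a block it stood at 2.33 and passed (adjusted p = 0.0375). This was the only 1 of 18 alternatives in which it passed, and that fit left fewer residual degrees of freedom than the main fit. Cyp7b1 was lower after fraction 1 than after fraction 2 by -0.93 on 1421074_at (adjusted p = 0.322) and -0.82 on 1421075_s_at (adjusted p = 0.475). For Cyp8b1 the difference of fraction 1 minus fraction 2 was -0.09 with an interval of -0.50 to 0.33, and for Slc27a5 it was -0.03 with an interval of -0.29 to 0.24. Cyp7a1 stood 0.69 higher after fraction 1 on its brighter probe set, with an interval of -0.16 to 1.54.

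Other genes that make, govern or carry bile acids were taken from 3 lists. Of 12 tested genes among 14 further enzymes and partners of the pathway, none passed in either comparison with control, with medians of -0.31 after fraction 1, with 9 of 12 below 0, and -0.21 after fraction 2, with 10 of 12 below 0, beside -0.02 and -0.04 for all tested probe sets. For these counts too, the share of all tested probe sets below 0 was not counted. The smallest unadjusted p after fraction 1 belonged to Slc27a2, a peroxisomal ligase of bile acid precursors, at -0.59 (adjusted p = 0.0911), Scp2, the thiolase of side chain shortening, at -0.71 on the brightest of its 4 probe sets (adjusted p = 0.110), and Cyp2c70, which makes the muricholic acids of mice, at -0.55 (adjusted p = 0.150). The other Scp2 probe sets stood at 0.07, -0.44 and 0.23 after fraction 1, so they disagree in sign. Cyp2c70 read 7454 and 6407 units after fraction 1, 6856 and 6408 after fraction 2, and 9390 and 10892 on the control diet, all 4 fraction arrays below both controls. Its change after fraction 2 was -0.61 (adjusted p = 0.388).

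Among 18 tested regulators of the 19 listed none passed in either comparison with control. The medians were -0.15 after fraction 1 and -0.20 after fraction 2, beside -0.02 and -0.04 for all tested probe sets. In each, 13 of 18 lay below 0, and the share of all tested probe sets below 0 was not counted. Nr0b2, the repressor SHP, read 976 and 1149 units after fraction 1, 1100 and 1725 after fraction 2, and 1474 and 1883 on the control diet. Fraction 1 lay below both controls, at -0.65 (adjusted p = 0.330, limma), and fraction 2 overlapped them. Of the other regulators named above for Cyp7a1, Nr1h4 and Klb stood at -0.001 and -0.0054 after fraction 1. Fgfr4 stood at -0.28 on its brightest probe set and at -0.80 and 0.34 on its others. A link of these genes to Cyp7a1 was not tested. Ppargc1a, a coactivator of the fasting response, stood at 0.69 (adjusted p = 0.326) after fraction 1 on its brightest probe set, and its others ran from 0.14 to 0.77. Dbp, a factor that cycles through the day, stood at -0.54 (adjusted p = 0.256) after fraction 1 on its brightest probe set and at -0.24 on its other. Nr1d1, a clock repressor, had the smallest p after fraction 2, at 0.58 (adjusted p = 0.602). The Cyp8b1 window held a string match to the element known from HNF4 targets, but no binding was measured. On its brightest probe set Hnf4a stood at -0.11 and -0.19 after fraction 1 and fraction 2, and on the second brightest at 0.93 and 0.82. A dimmer one stood at -0.24 and 0.25, and the dimmest at -0.34 and -0.51. The 4 probe sets of Hnf4a thus disagreed in sign, with none past the threshold.

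Bile acid transport held the other genes that passed. Of 12 tested genes among 16 listed, 1 rose and 1 fell after fraction 1, and 2 rose after fraction 2, beside 0.712% and 0.108% of all tested probe sets called in either direction. Slco1a4, an uptake carrier of organic anions at the sinusoidal membrane, read 4519 and 4586 units after fraction 1, 3180 and 3373 after fraction 2, and 1168 and 989 on the control diet, and rose by 2.07 (adjusted p = 0.00124) and by 1.59 (adjusted p = 0.00977). Slco1a1, a related carrier, read 398 and 107 units after fraction 1, 1994 and 1469 after fraction 2, and 2815 and 2903 on the control diet. It fell after fraction 1 (log2 change -3.67, adjusted p = 0.0202), while a dimmer probe set of it stood at -2.97 and did not pass (adjusted p = 0.112). Abcc3, which exports conjugated bile acids back to blood, read 2858 and 2287 units after fraction 1, 3618 and 3144 after fraction 2, and 1372 and 1221 on the control diet; it rose after fraction 2 by 1.37 (adjusted p = 0.0488) and stood at 0.97 after fraction 1 (adjusted p = 0.0644). All 4 fraction arrays of Slco1a4 and Abcc3 lay above both controls. The canalicular bile salt pump Abcb11 and the main uptake carrier Slc10a1, which move most bile acid, did not pass, at 0.19 and -0.06 after fraction 1 and at 0.07 and -0.25 after fraction 2; both were picked out after their values were seen.

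**Figure D4:**
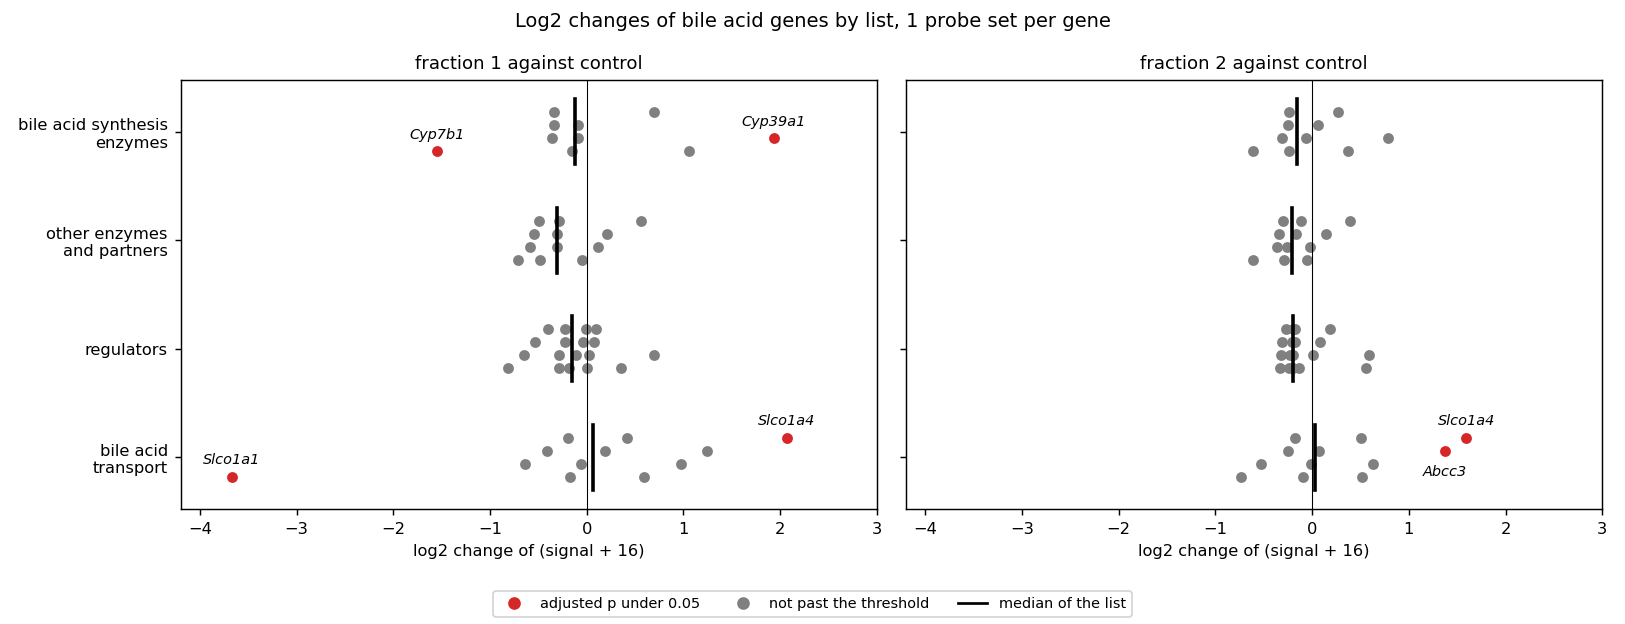
Log2 change (x axis) of each tested gene, 1 probe set per gene, in the 10 synthesis enzymes and 3 further lists (rows), for fraction 1 and fraction 2 against control; black bars are list medians and red points had an adjusted p under 0.05. The list medians lie between -0.31, for the further enzymes after fraction 1, and 0.07, for transport after fraction 1, and the called genes are Cyp39a1, Cyp7b1, Slco1a1 and Slco1a4 after fraction 1 and Slco1a4 and Abcc3 after fraction 2.

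Among 9209 tested genes, those whose pattern over the 6 arrays was nearest to a member were found by the root-mean-square difference of log2 values, each centred on its own mean. Nearest to Cyp39a1 were Zbtb16 (0.25), Nnmt (0.25) and Cebpd (0.32), where Cyp39a1 itself had a root-mean-square spread of 1.01. Nnmt, a methyltransferase of nicotinamide, read 1127 and 1661 units after fraction 1, 167 and 337 after fraction 2, and 511 and 350 on the control diet. Nearest to Cyp7b1, with a spread of 0.66, were Nox4 (0.10), Nxf1 (0.12) and Inhbc (0.13). Inhbc, a liver activin subunit, read 335 and 246 units after fraction 1, 664 and 624 after fraction 2, and 1032 and 897 on the control diet. Nearest to Cyp7a1, with a spread of 0.59, were Egr3 (0.06), Coq6 (0.11) and Mixl1 (0.14), all lowest on control replicate 2, the array with the high actin ratio. Mixl1 read at most 127 units, below the array medians, and Egr3 read 56.1 units on that array. With 6 arrays and so many genes, close patterns of this kind are a description only.

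Markers of the other liver cell types were summed on each array, with no test. All 7 Kupffer cell markers were tested, with summed signals of 6555 to 7194 units after fraction 1, 6959 to 7651 after fraction 2 and 7272 to 8735 in control. For 7 stellate cell and fibroblast markers, 6 of them tested, the sums were 3049 to 3967 after fraction 1, 4264 to 5470 after fraction 2 and 5509 to 6571 in control. For 6 endothelial markers they were 3971 to 4200 after fraction 1, 4730 to 5159 after fraction 2 and 4978 to 6512 in control. The 6 leukocyte markers, 3 of them tested, summed to 1308 to 1314 after fraction 1, 1787 to 1992 after fraction 2 and 1440 to 1633 in control. Of 5 cholangiocyte markers on the array 1 was bright enough to be tested, and the sums were 190 to 363 after fraction 1, 236 to 265 after fraction 2 and 238 to 286 in control. No marker was listed at 0. As with Cyp7b1, the stellate sums lay lowest after fraction 1 and highest in control, without overlap. The endothelial sums were also lowest after fraction 1, while those of fraction 2 and control overlapped, and the Kupffer sums overlapped between the fractions and between fraction 2 and control. The leukocyte sums were lowest after fraction 1 and highest after fraction 2, and the cholangiocyte sums overlapped among the diets. Their part in the changes of the synthesis genes was not tested.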

How the data were processed

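The authors deposited linear signal intensities, 1 for each probe set on each array, with no detection calls; no source used here names the software. The trimmed means of the arrays were equal within 0.0927%, so the authors' intensities were used as deposited. The array type, scan batch and chip lot came from the deposited experiment files. The 64 control probe sets among 22690 were dropped. In the platform annotation 20393 had 1 gene symbol, 691 several and 1606 none. Tests took the probe sets for which 2 or more arrays reached the 40th percentile of their array. Values were log2(signal + 16), fitted over all 6 arrays with limma 3.58.1 in R 4.3.3 (lmFit, eBayes with trend, two-sided, 3 residual degrees of freedom), and p-values were adjusted over all 14755 tested probe sets at a threshold of 0.05. The brightest tested probe set stood for a gene. The procedure was tested on simulated arrays with independent noise and no batch effect. That does not give its error rate on these arrays. Precision is limited by the number of arrays, with a median standard error of 0.25.

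The members, gene lists and motifs were chosen with earlier results of these data known. Named genes are all members, every list gene that passed and some of the 3 genes per list and comparison with the smallest p. The 3 nearest in pattern to Cyp7a1, Cyp7b1 and Cyp39a1 are also named. Abcb11, Slc10a1, Nr1h4, Klb and Fgfr4 fall outside this rule. Alternatives were other scaling, pseudocounts, filters and variance priors, blocks for scan batch, chip lot and replicate letter, a fit to the 2 groups compared, and each array left out. The fit to scan batch 1 alone was added after seeing the data. Where an array was omitted, the lone array left in that group was taken to vary as the other groups do. Figures used Python 3.11.15 and matplotlib 3.10.9.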

Additional observations from a re-analysis of the deposited data

How the results depend on the processing

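Some alternatives cannot turn the sign of a change of fraction 1 against control. The filters, the variance trend, a fit to the groups compared and omission of a fraction 2 array leave its size as it was. Omission of another array cannot turn it where the groups do not overlap. With 2 arrays per group the calls lay close to the threshold. The changes of Cyp7b1 and Cyp39a1 after fraction 1 kept their sign in all 17 alternatives, several of which fix it. The call of Cyp39a1 held in 6 of them (adjusted p from 0.0291 to 0.298), and those of Cyp7b1 held in 8 on 1421074_at (0.0217 to 0.175) and 9 on 1421075_s_at (0.0118 to 0.235). The count of 3 called probe sets of the pathway after fraction 1 became 1 with median centring and 0 with no filter, with no variance trend or with only the groups compared, and ran from 0 to 4 over the left-out arrays. Over all probe sets the count of 105 became 43, 27, 12 and 39 under these 4 settings and 66 in scan batch 1 alone, and ran from 14 to 149 over the left-out arrays. After fraction 2 the pathway count stayed at 0 in every alternative, and the count of 16 over all probe sets became 10 with no filter, 2 with no variance trend, 10 with chip lot as a block, 9 with only the groups compared, 4 in scan batch 1 alone, and 3 to 28 over the left-out arrays. Between the fractions the pathway count of 0 became 1 with chip lot as a block. The count of 2 over all probe sets became 16 there, 0 with quantile normalization, median centring, a pseudocount of 1, scan batch as a block, no filter, scan batch 1 alone or no variance trend, and 0 to 11 over the left-out arrays. Of the 105 calls 51.4% were higher, and 60.5% with median centring.

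Replicate letters are shared by the fractions, but nothing says that they pair samples (r of the deviations 0.0301 across probe sets, 2 pairs). With the replicate block 0 pathway probe sets and 2 probe sets in all passed, and Cyp39a1 stood at 2.17 (adjusted p = 0.0985).

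Sign changes concerned values that did not pass; the cause was not tested. After fraction 1, Akr1d1 1425771_at turned to 0.44 (scan batch as a block), 0.47 (chip lot as a block) and 0.51 in scan batch 1 alone. After fraction 2, Baat 1419001_at and 1419002_s_at turned to 0.051 and 0.062 with median centring and to 0.069 and 8.8e-04 with chip lot as a block, and Cyp39a1 to 0.29 in scan batch 1 alone. Between the fractions, Akr1d1 1455100_at turned to -0.050 with median centring and -0.18 in scan batch 1 alone, Cyp7a1 1422100_at to 0.60 and 0.81 under the scan batch and chip lot blocks, and Akr1d1 1425771_at to 0.17, 0.14 and 0.092 with scan batch, chip lot and in scan batch 1 alone. Over the left-out arrays, values that crossed 0 after fraction 1 ran from -0.69 to 0.51 for Akr1d1 1425771_at, -0.25 to 0.081 for Cyp27a1, -0.33 to 2.54 for Cyp7a1 1422100_at and -0.41 to 0.12 for Hsd3b7. After fraction 2 they ran from -0.52 to 0.037 for Cyp39a1, -0.56 to 0.088 for Amacr, -0.22 to 0.083 and -0.28 to 0.15 for Baat 1419001_at and 1419002_s_at, -0.14 to 2.72 and -0.30 to 1.05 for Cyp7a1 1422100_at and 1438743_at, and -0.33 to 0.87 for Akr1d1 1425771_at. Between the fractions they ran from -0.18 to 0.26 and -0.81 to 0.092 for Akr1d1 1455100_at and 1425771_at, -0.48 to 0.056 for Hsd3b7, -0.090 to 0.039 for Slc27a5, -0.31 to 0.13 for Cyp8b1 and -0.22 to 0.013 for Amacr. Cyp7a1 1422100_at was too dim for the filter at the 60th percentile and has no value there.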
